A study of Mus musculus with 18 samples.

Results

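The DOCK exchange factors were followed through 18 RNA-seq libraries of mouse dendritic cells (DCs), taken from collagen gels of different density or from chambers without collagen. The 8 members were the rows of the count table for Dock1, Dock2, Dock4, Dock5, Dock8, Dock9, Dock10, and Dock11, out of 29875 genes in all. They were chosen by name. All 8 passed the filter on low counts, as did 13844 genes in total. Of the DOCK genes outside these 8, Dock6 passed and Dock3 did not.

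The DCs were grown from bone marrow of wild-type C57Bl6/J mice aged 8 to 12 weeks in medium with GM-CSF, and all groups had received 200 ng/ml lipopolysaccharide for 24 hours from differentiation day 8. Gels held bovine collagen at 1.7, 2.6, 3.5, or 4.4 mg/ml, with a gradient of CCL19, the ligand of the chemokine receptor CCR7, and RNA was taken 5 hours after the gradient was set up. The 2 suspension groups were in the same kind of chamber without collagen. The sample titles place CCL19 in one of these groups while the library names place it in the other, so the groups are called by title and nothing is said of what CCL19 does. Each of the 6 groups had 3 libraries that the titles call biological replicates, and the library names give all 6 libraries of a replicate number 1 date and 1 sequencing lane. In replicate 2, the names of the 4.4 mg/ml library and of the suspension library titled without CCL19 carry an extra number that the other names lack.

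Each gel was lysed whole, so a value is an average over all cells in it. Totals ran from 13062944 to 28059839 counts per library. The 8 dendritic cell markers summed to 15600 to 52700 CPM (counts scaled to library size), and all 8, Itgax and Ccr7 among them, had counts in every library. T and natural killer cell genes summed to at most 4.65 CPM, with Cd3e at 0 in 13 of 18 libraries. Eosinophil genes moved with the collagen comparison. Their 6 markers summed to 109 to 1270 CPM in suspension and 9.5 to 154 CPM in collagen, and all 5 tested were called lower in collagen. Neutrophil markers summed to 630 to 9560 CPM in suspension and 1040 to 5110 CPM in collagen, with 1 of 6 called lower. With a replicate block, 3 of 6 macrophage markers (sums of 522 to 4550 CPM in suspension and 697 to 5110 CPM in collagen) and 1 of 8 dendritic cell markers were called higher in collagen, and 1 of 5 basophil and mast cell markers and 1 of 3 B cell markers lower. The study's methods describe male mice. The 6 libraries of replicate 3 had no Xist counts and 54.7 to 183 CPM of 4 Y-linked genes, whereas replicates 1 and 2 had 29.3 to 229 CPM of Xist and at most 0.0773 CPM of the Y-linked genes. The share of these differences in the results below was not tested, and in bulk RNA fewer cells of a type and less RNA per cell cannot be told apart.

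DOCK proteins are large exchange factors that load the small GTPases Rac and Cdc42 with GTP through a conserved catalytic domain, DHR-2, while a second domain, DHR-1, binds membrane phosphoinositides. Active Rac drives branched actin at the leading edge, and Cdc42 sets polarity. The DOCK-A group (Dock1, Dock2, Dock5) activates Rac and works with ELMO scaffolds, Dock4 of the DOCK-B group also activates Rac, Dock8 of the DOCK-C group activates Cdc42, and the DOCK-D group (Dock9, Dock10, Dock11, also called zizimins) activates Cdc42. In leukocytes Dock2 is known as the main Rac activator downstream of chemokine receptors, and Dock8 is known for keeping DCs and lymphocytes intact and on course in confined tissue.

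All 8 genes are placed here on GRCm38, with positions from GENCODE vM21. Of the DOCK-A genes, Dock1 lies at chr7:134670654-135173639 on the plus strand, Dock2 at chr11:34226815-34783892 on the minus strand, and Dock5 at chr14:67752135-67933442 on the minus strand. Dock4 lies at chr12:40445952-40846874 and Dock8 at chr19:24999534-25202432, both on the plus strand. The DOCK-D genes Dock9 (chr14:121542046-121797837) and Dock10 (chr1:80501073-80758527) are on the minus strand and Dock11 (chrX:35888832-36076562) is on the plus strand. The counts are given per gene, and the rule by which reads were assigned to exons is not stated. Among the exons of the 8 genes, only those of Dock2 overlapped another annotated gene, the antisense gene 4930403D09Rik, which shared 460 bases and had 3 counts in all against 65881 for Dock2.

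Promoters are shown for 5 members, Dock1 and Dock8 because they were called lower in collagen (Dock8 with a replicate block or without the filter), Dock10 and Dock11 because they followed each other most closely, and Dock2 because it was the most abundant. Each line gives the 250 bases before the start site from RefSeq (GRCm38.p6), 5′ to 3′ on the gene's strand, and capitals mark matches to the GC box GGGCGG on either strand.
Dock1, chr7:134670437-134670686, plus strand: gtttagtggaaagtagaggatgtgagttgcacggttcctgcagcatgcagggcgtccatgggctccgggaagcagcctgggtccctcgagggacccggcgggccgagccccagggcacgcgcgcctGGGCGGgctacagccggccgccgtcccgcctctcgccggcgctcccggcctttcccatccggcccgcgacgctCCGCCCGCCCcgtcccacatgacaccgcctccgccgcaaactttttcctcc
Dock8, chr19:24999279-24999528, plus strand: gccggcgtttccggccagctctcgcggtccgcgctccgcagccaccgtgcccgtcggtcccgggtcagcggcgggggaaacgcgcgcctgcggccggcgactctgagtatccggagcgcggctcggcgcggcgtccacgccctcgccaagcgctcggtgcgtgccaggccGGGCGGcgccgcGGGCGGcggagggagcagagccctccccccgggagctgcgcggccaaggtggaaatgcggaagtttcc
Dock2, chr11:34783906-34784155, minus strand: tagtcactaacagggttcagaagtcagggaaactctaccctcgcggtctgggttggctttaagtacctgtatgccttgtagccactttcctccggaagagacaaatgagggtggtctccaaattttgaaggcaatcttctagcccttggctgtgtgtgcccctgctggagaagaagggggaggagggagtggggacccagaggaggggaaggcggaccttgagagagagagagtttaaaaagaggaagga
Dock10, chr1:80758554-80758803, minus strand: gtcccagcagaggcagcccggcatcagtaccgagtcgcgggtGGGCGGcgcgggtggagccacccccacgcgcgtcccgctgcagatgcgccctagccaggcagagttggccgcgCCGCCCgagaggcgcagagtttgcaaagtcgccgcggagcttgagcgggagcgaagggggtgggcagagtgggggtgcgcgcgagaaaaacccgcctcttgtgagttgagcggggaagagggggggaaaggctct
Dock11, chrX:35888582-35888831, plus strand: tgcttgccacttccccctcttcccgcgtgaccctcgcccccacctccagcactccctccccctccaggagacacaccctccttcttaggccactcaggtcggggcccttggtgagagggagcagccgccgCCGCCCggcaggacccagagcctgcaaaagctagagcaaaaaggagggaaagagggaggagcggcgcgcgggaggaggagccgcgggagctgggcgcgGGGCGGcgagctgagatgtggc

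The promoter table matched 7 of the 8 members with 10 start sites, and the missing entry was Dock5. The promoters of Dock1, Dock8, Dock10, and Dock11 shown above were GC-rich, at 71.6%, 77.6%, 70.4%, and 69.6% G and C, against a median of 52.4% over all 32851 windows of the same length. A second start site of Dock10, at chr1:80665353-80665602, differed from the one shown, with 43.2% and no GC box. Dock2 had 52.8% and no GC box. Dock1 had 3 matches to the GC box, 2 of them overlapping, and Dock8, Dock11, and the Dock10 window shown had 2 each. A GC box was found in 32.7% of all windows. Neither GAGGAAGT, a core of the myeloid factor PU.1, nor TGANTCA, the AP-1 element, matched on either strand in any of the 10 windows of members, and these motifs were found in 2.44% and 6.75% of all windows. CCAAT matched in Dock4 alone among the members, 2 times, and in 33.8% of all windows. The GC box was present in windows of Dock1 and Dock8, with negative fold changes in collagen, and of Dock10 and Dock11, with positive ones. Among the windows not shown, that of Dock4 had 2 matches and the Dock9 window at chr14:121797735-121797984 had 5. The remaining Dock9 windows had none. A relation of the motif to the fold changes was not tested.

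The DCs carried mainly the leukocyte members of the family. Dock2 had the highest level per kilobase of its longest transcript, with a median of 28.1 CPM per kb over the 18 libraries, followed by Dock8 (19.3 CPM per kb) and Dock10 (16.6 CPM per kb). Dock11 came next at 5.54 CPM per kb. Dock5 (2.34 CPM per kb), Dock1 (0.994 CPM per kb), Dock9 (0.703 CPM per kb), and Dock4 (0.484 CPM per kb) were low. Outside the members, Dock6 reached 1.0 CPM per kb, and Dock3 had only 0 to 12 counts per library.

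Some neighbors in this order were not separated beyond their spread. Dock2 was above Dock8 in 16 of 18 libraries, and Dock10 was above Dock11 in 18 of 18. Per kilobase of the longest transcript, Dock8 and Dock10 changed places between the groups. Dock8 was higher in 6 of 6 suspension libraries and in 2 of 12 collagen libraries. Dock6 was above Dock1 in 12 of 18 libraries. Dock1 was above Dock9 in 15 of 18 libraries, and Dock9 was above Dock4 in 15 of 18. With the union of exons as the length, the order of the 8 members and Dock6 by median was the same. The Dock8 and Dock10 medians were then further apart, at 15 and 6.52 CPM per kb. The union is 10070 bases for Dock8 and 18267 for Dock10, so the change of places depends on the length used.

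**Figure D1:**
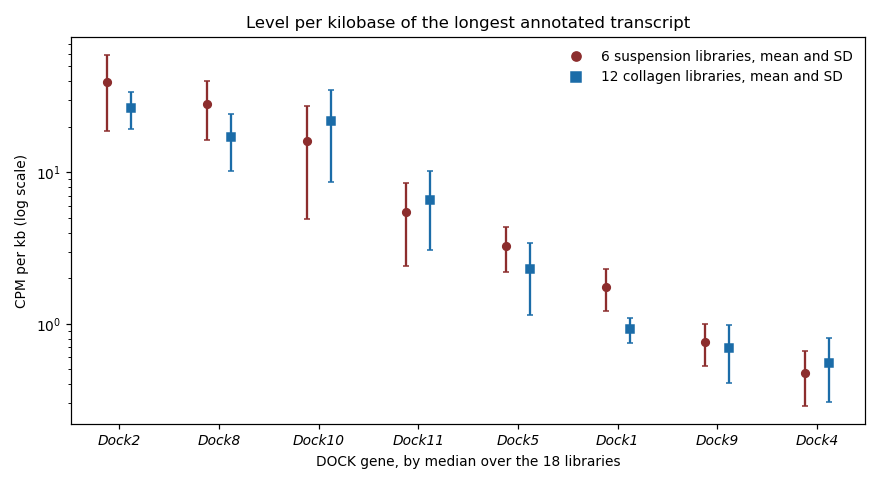
Level of the 8 DOCK members in CPM per kilobase of the longest annotated transcript (log scale), ordered by the median over 18 libraries, with the mean and SD of the 6 suspension libraries (circles) and the 12 collagen libraries (squares). Dock2, Dock8, and Dock10 lead, and Dock9 and Dock4 are lowest.

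Shares were taken of the summed level of the 8 members per kb of the longest transcript, and they depend on that length. Dock2 made up 40.2% ± 7.47 (SD, n = 6) in suspension and 36.8% ± 7.51 (SD, n = 12) in collagen. Dock8 made up 30.2% ± 3.11 (SD, n = 6) in suspension and 22% ± 2.73 (SD, n = 12) in collagen, and Dock10 16.2% ± 4.3 (SD, n = 6) and 26.6% ± 6.23 (SD, n = 12). The ranges of the Dock8 share, 27.3% to 36.2% in suspension and 18.8% to 27.7% in collagen, overlapped slightly, and so did those of Dock10, at 12.4% to 24.7% and 19.0% to 44.1%.

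Comparing the 12 collagen libraries with the 6 suspension libraries asks whether expression differs between DCs in gels with CCL19 and DCs in chambers without collagen. All gels had CCL19, whereas titles and library names each give it to a single suspension group. Matrix and CCL19 are therefore not fully separated here, and their shares were not tested. Without a replicate block, Dock1 was the only member called, and it was lower in collagen. The edgeR quasi-likelihood fit over 6 group means called 1 of 8 members at an adjusted p of 0.1, against 20.2% of all genes tested (12.4% lower in collagen and 7.78% higher). With the replicate number as a block, 4 of 8 members were called, Dock1, Dock2, Dock5, and Dock8, all lower in collagen, against 34.8% of all genes (19.3% lower and 15.6% higher). The median log2 fold change of the members was -0.33 without the block and -0.30 with it, against 0.003 and 0.008 over all genes tested. Dock1, Dock2, and Dock5 are all 3 members of the DOCK-A group. Dock4 and the DOCK-D members Dock9, Dock10, and Dock11 were called in neither of these fits.

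**Figure D2:**
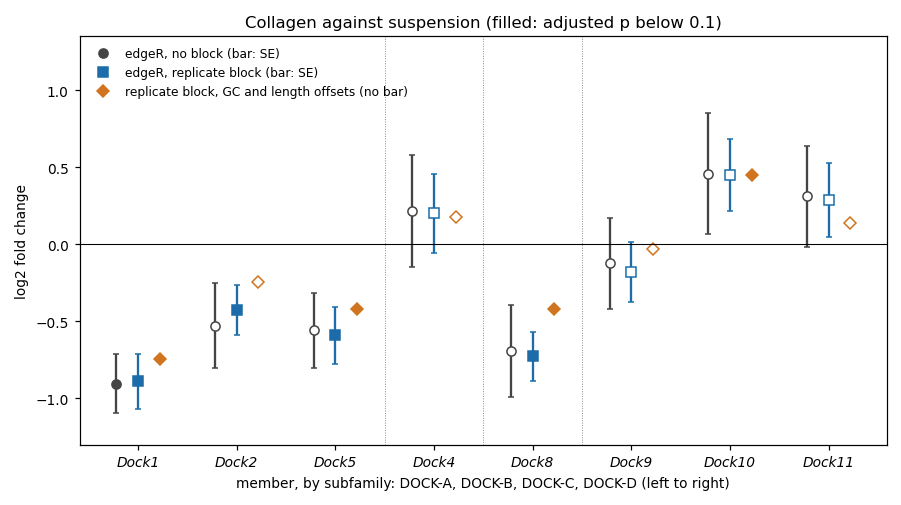
Log2 fold change of the 8 members in collagen against suspension, from edgeR without a block (circles, with SE), with the replicate block (squares, with SE), and with the block plus GC and length offsets (diamonds, no error drawn), filled where the adjusted p is below 0.1. Dock1 is filled in all 3 fits, Dock2, Dock5, and Dock8 are filled with the block, and Dock10 is filled only with the offsets, where Dock2 is not.

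Dock1, the ubiquitous DOCK180 that activates Rac in engulfment and migration, showed the clearest difference. In suspension it had 10.9, 18.8, and 12.7 CPM in replicates 1 to 3 of the group titled without CCL19, and 8.74, 10.8, and 9.34 CPM in the group titled plus CCL19. From the loosest to the densest gel, replicate 1 had 4.47, 6.24, 6.58, and 7.9 CPM, replicate 2 had 6.17, 5.35, 5.62, and 8.28 CPM, and replicate 3 had 6.36, 6.84, 6.7, and 4.5 CPM. All 12 collagen libraries lay below the lowest suspension library. Such a separation was seen in 1.52% of all genes in this direction and in 0.506% in the other, and no other member had it. The fold change was 0.535 (log2 -0.90 ± 0.19 SE, adjusted p = 0.0056 in edgeR), and with the block it was 0.540 (log2 -0.89 ± 0.18 SE, adjusted p = 0.0016). Within replicates 1, 2, and 3 the log2 difference was -0.65, -1.17, and -0.84. Without replicate 2, which held the highest suspension value, the call was lost (log2 -0.74, adjusted p = 0.18). That fit called 631 of 14106 genes, against 2790 of 13844 with all replicates. Dock1 had 58 to 413 counts per library, and it was lower in the same libraries as the eosinophil genes given above, whose part in this result was not tested.

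Dock8, the Cdc42 activator, was lower in collagen in all 3 replicates but varied between them. In suspension it had 139, 349, and 308 CPM in the group titled without CCL19 and 125, 169, and 227 CPM in the group titled plus CCL19. From the loosest to the densest gel, replicate 1 had 55.9, 67.5, 70.3, and 90.1 CPM, replicate 2 had 191, 174, 203, and 112 CPM, and replicate 3 had 147, 213, 154, and 130 CPM. Replicate 1 was low in every group. The pooled groups overlapped, with 5 of 12 collagen libraries below the lowest suspension library. Within replicates 1 and 3 every collagen library was below both suspension libraries, and within replicate 2 they overlapped. The fold change was 0.620 (log2 -0.69 ± 0.30 SE, adjusted p = 0.14) without the block and 0.604 (log2 -0.73 ± 0.16 SE, adjusted p = 0.0031) with it, both from edgeR. Without the filter and without the block it was called too (log2 -0.715, adjusted p = 0.0362). Dock8 has a GC content of 51.4%, and offsets for GC and length took the blocked value to log2 -0.42 (adjusted p = 0.021).

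Dock2, the Rac activator of chemokine signaling and the most abundant member, differed less. In suspension it had 146, 321, and 437 CPM in the group titled without CCL19 and 95.5, 178, and 330 CPM in the group titled plus CCL19. In collagen it ran from 104 CPM to a median of 175 CPM and a maximum of 245 CPM. No collagen library was below the lowest suspension library. Only in replicate 3 were all 4 collagen libraries, at 145 to 245 CPM, below both suspension libraries, at 330 and 437 CPM. The log2 differences within replicates 1, 2, and 3 were 0.02, -0.33, and -0.93. The log2 fold change was -0.53 ± 0.27 (SE, adjusted p = 0.22) without the block and -0.42 ± 0.16 (SE, adjusted p = 0.059) with it in edgeR. The blocked call was lost with the GC and length offsets (log2 -0.24, adjusted p = 0.37).

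Dock5, a close relative of Dock1 that activates Rac, was lower on average, with values that differed between replicates as well as between densities. In suspension it had 42.5, 48.6, and 25.3 CPM in the group titled without CCL19 and 31.5, 26.2, and 21.5 CPM in the group titled plus CCL19. From the loosest to the densest gel, replicate 1 had 19.7, 20.8, 15.3, and 14.7 CPM, replicate 2 had 36.8, 46.0, 29.6, and 15.5 CPM, and replicate 3 had 16.3, 36.6, 10.9, and 12.7 CPM. Of the 12 collagen libraries, 8 were below the lowest suspension library, and all 3 at 4.4 mg/ml were among them. Over all densities the log2 fold change was -0.56 ± 0.24 (SE, adjusted p = 0.14) without the block and -0.59 ± 0.19 (SE, adjusted p = 0.025) with it in edgeR. Within replicates 1, 2, and 3 the log2 difference was -1.06, -0.26, and -0.46, and without replicate 1 the unblocked value was -0.28 (adjusted p = 0.641). The blocked call held with the offsets (log2 -0.42, adjusted p = 0.022).

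Dock4, the Rac activator of the DOCK-B group, had 1.58, 4.04, and 6.44 CPM as lowest, median, and highest in suspension and 1.74, 4.29, and 8.12 CPM in collagen. Its log2 fold change was 0.21 ± 0.36 (SE, adjusted p = 0.75 in edgeR), and the ranges overlapped in every replicate. Dock9, the Cdc42 activator zizimin1, had 3.37, 5.93, and 8.34 CPM in suspension and 2.47, 5.41, and 10.0 CPM in collagen, with a log2 fold change of -0.12 ± 0.30 (SE, adjusted p = 0.83 in edgeR). Both were near the low end of the family, with 29 to 259 counts per library for Dock4 and 32 to 223 for Dock9.

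Dock10, the Cdc42 activator zizimin3, had higher mean values in collagen, and edgeR called it neither without the block nor with the block alone. In suspension it had 68.2, 271, and 121 CPM in the group titled without CCL19 and 44.7, 78.6, and 117 CPM in the group titled plus CCL19. From the loosest to the densest gel, replicate 1 had 49.1, 65.1, 90.4, and 95.4 CPM, replicate 2 had 168, 166, 231, and 116 CPM, and replicate 3 had 151, 410, 172, and 167 CPM. The pooled ranges overlapped, and only in replicate 3 were all 4 collagen libraries above both suspension libraries. The log2 fold change was 0.46 ± 0.39 (SE, adjusted p = 0.49) without the block and 0.45 ± 0.23 (SE, adjusted p = 0.16) with it in edgeR. Without replicate 3 the unblocked value was 0.24 (adjusted p = 0.798), and without replicate 2 it was 0.69 (adjusted p = 0.548). With the block it was called higher by DESeq2 (log2 0.48, adjusted p = 0.098) and with the GC and length offsets in edgeR (log2 0.45, adjusted p = 0.012).

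Dock11, the X-linked Cdc42 activator zizimin2, followed Dock10. In suspension it had 31.2, 74.5, and 35.9 CPM in the group titled without CCL19 and 13.9, 31.2, and 31.5 CPM in the group titled plus CCL19. From the loosest to the densest gel, replicate 1 had 16.6, 21.9, 35.0, and 37.9 CPM, replicate 2 had 40.3, 43.9, 42.3, and 26.7 CPM, and replicate 3 had 47.6, 107, 66.3, and 42.5 CPM. Collagen was above suspension in every library of replicate 3, the replicate without Xist counts, and overlapped it in replicates 1 and 2, which had Xist. The log2 differences within replicates 1, 2, and 3 were 0.34, -0.36, and 0.87. The log2 fold change was 0.31 ± 0.33 (SE, adjusted p = 0.59 in edgeR) and turned to -0.07 (adjusted p = 0.93) without replicate 3. Whether the Xist difference between replicates bears on Dock11 was not tested.

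**Figure D3:**
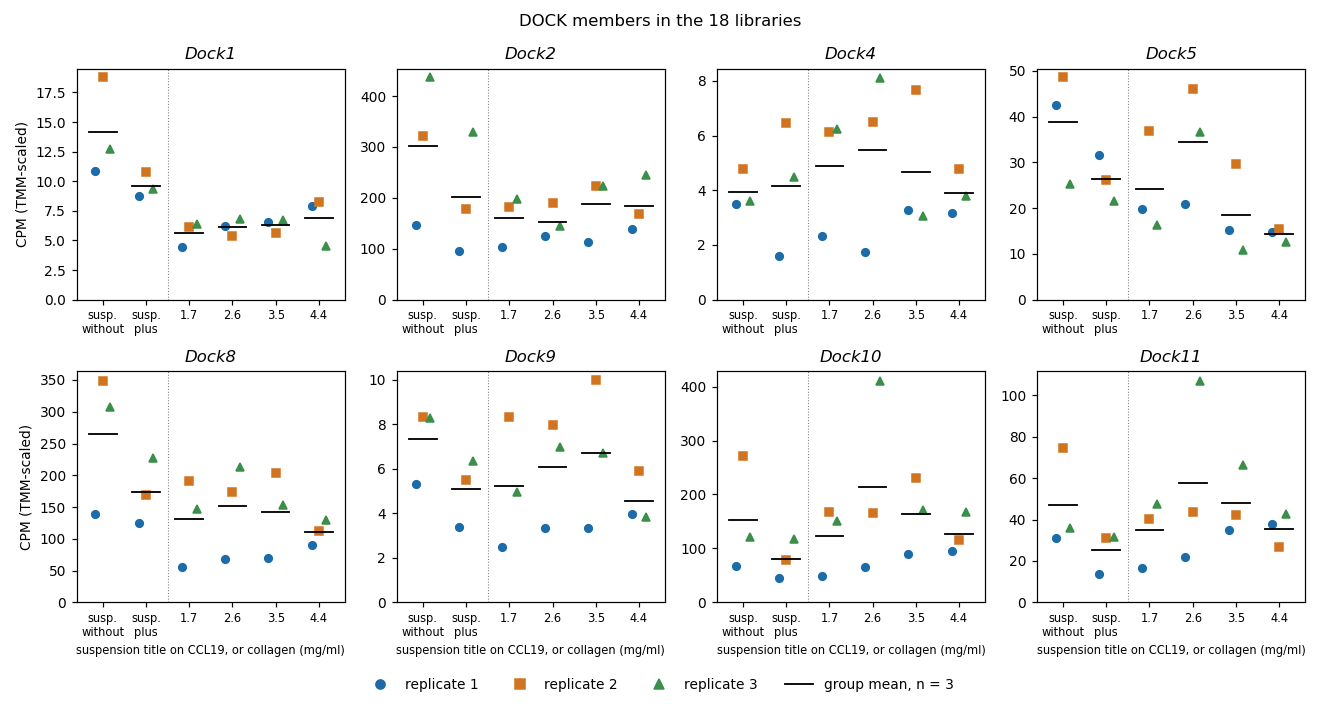
CPM on TMM-scaled library sizes of the 8 members in each of the 18 libraries, by group (2 suspension groups left of the dotted line, 4 collagen densities in mg/ml right of it), with symbols for replicates 1 to 3 and a bar for the group mean (n = 3). All collagen libraries of Dock1 lie below its suspension libraries, replicate 1 is low for Dock8 and Dock10, and the 2.6 mg/ml library of replicate 3 stands above the rest for Dock10 (410 CPM) and Dock11 (107 CPM).

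The opposite signs of Dock8 and Dock10, the 2 most abundant Cdc42 activators, met in their ratio within each library, which no scaling between libraries can alter. The ratio of Dock10 to Dock8 CPM was 0.491, 0.777, and 0.394 in the suspension group titled without CCL19 and 0.358, 0.465, and 0.517 in the group titled plus CCL19. From the loosest to the densest gel it was 0.879, 0.964, 1.29, and 1.06 in replicate 1, 0.878, 0.954, 1.14, and 1.04 in replicate 2, and 1.02, 1.93, 1.11, and 1.28 in replicate 3. Every collagen library was above every suspension library, in each replicate and at each density. This pair was chosen after the values were seen and has no test. Of all other genes tested, 1.85% had a ratio to Dock8 that was higher in all collagen libraries in the same way. The ratio of Dock11 to Dock8, 0.111 to 0.224 in suspension and 0.209 to 0.503 in collagen, overlapped slightly. A ratio shows unequal change and not which of the genes changed. Dock8 and Dock10 differ in GC content, at 51.4% and 44.8%, and the quartiles over all genes tested are 45.1% and 54.4%.

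**Figure D4:**
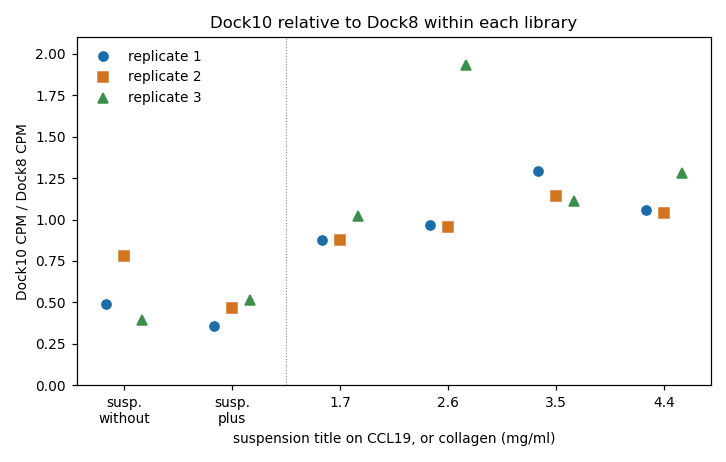
Ratio of Dock10 CPM to Dock8 CPM in each of the 18 libraries, by group, with symbols for replicates 1 to 3. The 6 suspension libraries lie between 0.358 and 0.777 and the 12 collagen libraries between 0.878 and 1.93.

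The closest pair of members lay within a subfamily, and the next closest pairs crossed subfamilies. After the mean of each replicate number was subtracted, log2 CPM of Dock10 and Dock11 had a Pearson r of 0.892 over the 18 libraries, the highest of the 28 pairs of members. Dock8 went with Dock5 (r = 0.759), Dock1 (r = 0.756), and Dock9 (r = 0.735), and less with Dock2 (r = 0.559). The lowest value was that of Dock2 and Dock4 (r = -0.274). For the 3 members with the largest fold changes, the genes most like them among all genes tested were Prkch (r = 0.947) and Frmd4b (r = 0.908) for Dock1, Spg11 (r = 0.947) and Synrg (r = 0.938) for Dock8, and Zfp408 (r = 0.96) and Atxn1l (r = 0.953) for Dock5. These correlations describe 18 libraries that share groups, depth, and base composition, and carry no test.

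Each collagen density was then compared with suspension, asking whether the members differed from suspension to a like degree in loose and dense gels. These 4 comparisons share the suspension libraries. The Dock1 values were below suspension at every density, with log2 fold changes of -1.04 ± 0.29, -0.92 ± 0.29, -0.89 ± 0.29, and -0.76 ± 0.28 (SE) from the loosest to the densest gel. Without the block edgeR called it at 2.6 mg/ml alone (adjusted p = 0.0832), the others having adjusted p of 0.362, 0.117, and 0.104. Leaving out any replicate ended that call (adjusted p = 0.145 to 0.576). Over all genes, 1318, 0, and 4 were called there without replicates 1, 2, and 3, against 1090 with all replicates. With the block Dock1 was called at all 4 densities (adjusted p = 0.0724, 0.0342, 0.0489, and 0.0505 from the loosest to the densest gel). With the offsets added to the block it was called at 2.6 mg/ml (adjusted p = 0.0184) and not in the other gels (adjusted p = 0.107, 0.105, and 0.142).

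Dock5 was called lower in the densest gel. Its log2 fold change was -0.40 ± 0.36, 0.11 ± 0.35, -0.78 ± 0.37, and -1.16 ± 0.37 (SE) from the loosest to the densest gel. The decrease at 4.4 mg/ml was called by edgeR without the block (adjusted p = 0.062) and with it (log2 -1.14, adjusted p = 0.0072), and the value at 3.5 mg/ml only with the block (log2 -0.87, adjusted p = 0.052). All 3 libraries at 4.4 mg/ml were below all 6 suspension libraries for 2 of 8 members, Dock1 and Dock5, against 9.25% of all genes. Without the block, leaving out any replicate, or the 4.4 mg/ml library of replicate 2 alone, ended the Dock5 call at 4.4 mg/ml (adjusted p = 0.12 to 0.25). Over all genes, 1615, 106, and 946 were called there without replicates 1, 2, and 3, and 1457 without that library, against 2054 with all libraries. With the block and the offsets the Dock5 call held at 4.4 mg/ml (log2 -0.83, adjusted p = 0.0041).

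Dock8 was not called at any density in edgeR without the block (adjusted p = 0.201 in the densest gel), and with it was called lower at 3.5 mg/ml (log2 -0.65 ± 0.24 SE, adjusted p = 0.086) and 4.4 mg/ml (log2 -0.87 ± 0.24 SE, adjusted p = 0.015) in edgeR. With the offsets added, the call at 4.4 mg/ml held at log2 -0.46 (adjusted p = 0.085) and that at 3.5 mg/ml was lost (log2 -0.24, adjusted p = 0.45). Without the block, the value in the densest gel passed the threshold without the filter (log2 -1.02, adjusted p = 0.0607) and without replicate 1 (log2 -1.01, adjusted p = 0.0756). Dock10 was called higher with the block at 2.6 mg/ml (log2 0.80 ± 0.32 SE, adjusted p = 0.098), the density that holds its highest library. With the offsets added this call was lost (log2 0.41, adjusted p = 0.11), and without replicate 3 the unblocked log2 fold change went from 0.95 to 0.17. In the fit with the block and offsets, 1 member was called higher at 3.5 mg/ml and 1 at 4.4 mg/ml. That fit called 2379 and 4747 of 13834 genes there, counting either direction. Dock2, Dock4, Dock9, and Dock11 were not called at any density in edgeR without the block or with the block alone.

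In counts, edgeR without the block called 0, 1, 0, and 1 of 8 members from the loosest to the densest gel, against 0.0361%, 7.87%, 4.9%, and 14.8% of all genes. In the gels with a count of 0, the loosest and the second densest, 1 and 2 members had an unadjusted p under 0.05, against 8.04% and 17.6% of all genes. DESeq2 called 1 member in each, and 141 and 1343 of 13844 genes. With the block the counts were 1, 2, 3, and 3 in the same order, against 2.91%, 21.6%, 18.4%, and 31.9% of all genes.

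**Figure D5:**
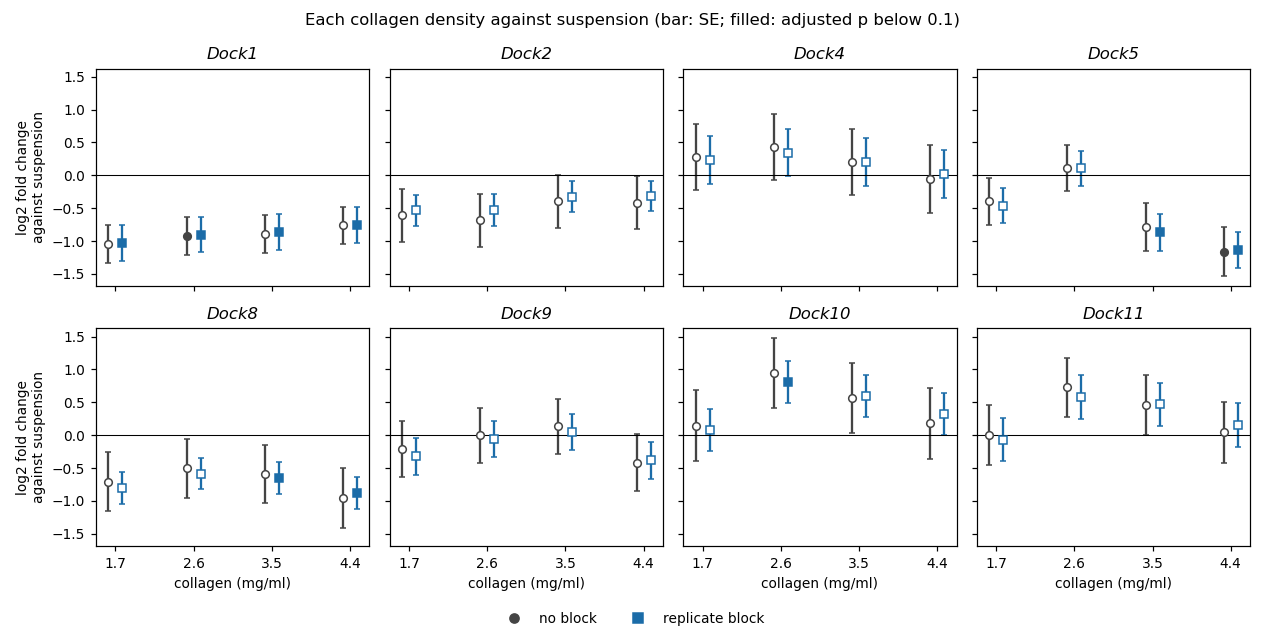
Log2 fold change of each member against suspension at each of the 4 collagen densities (mg/ml), from edgeR without (circles) and with (squares) the replicate block, with SE and filled where the adjusted p is below 0.1. Dock1 is filled at every density with the block, Dock5 reaches -1.16 at 4.4 mg/ml, and the DOCK-D members Dock10 and Dock11 have their highest values at 2.6 mg/ml.

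Within the gels, no member was called for density by edgeR without the block or with it, and Dock5 was called for the trend in 2 other fits. Between 4.4 and 1.7 mg/ml, 0 of 8 members were called without the block (0.00722% of all genes) and with it (1.73%). At an unadjusted p under 0.05 there were 0 members without the block (7.66% of all genes) and 1 with it (14.4%), Dock5, and DESeq2 called 0. For the linear trend over the 4 densities, 0 members were called without the block (0.00722%) and with it (1.45%), with 1 member at an unadjusted p under 0.05 in each fit (7.2% and 14.0% of all genes), again Dock5, and 0 called by DESeq2. The Dock5 slope was -0.35 ± 0.14 log2 per mg/ml (SE, adjusted p = 0.575) without the block and -0.33 ± 0.11 (SE, adjusted p = 0.167) with it. It passed the threshold with the block in DESeq2 (-0.32, adjusted p = 0.068) and with the block and offsets in edgeR (-0.28, adjusted p = 0.064). Its level was highest at 2.6 mg/ml, so the decrease was not even across densities. The slopes of the other 7 members ran from -0.14 (Dock4) to 0.10 (Dock1) without the block.

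Between the 2 suspension groups, 0 of 8 members were called by edgeR without or with the block, and 0% of all genes were called in either fit. At an unadjusted p under 0.05 there were 0 members without the block (6.18% of all genes) and 3 with it (14.2%), Dock2, Dock10, and Dock11, and DESeq2 called 0. With the block all 8 members had lower values in the group titled plus CCL19, with log2 differences from -0.96 (Dock11) to -0.12 (Dock4). Their median was -0.54, against -0.012 over all genes tested. Dock1, Dock2, Dock5, and Dock8 differed by -0.54, -0.60, -0.50, and -0.52. Replicate 2 of the group titled without CCL19 was the highest suspension library for Dock1, Dock5, Dock8, Dock9, Dock10, and Dock11. The library names contradict the titles, so these values say nothing of CCL19.

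Of the DOCK genes outside the 8 members, Dock6, which acts on Rac and Cdc42, was lower in collagen. It had 14.2 ± 3.96 CPM (SD, n = 6) in suspension and 6.29 ± 2.14 CPM (SD, n = 12) in collagen, and 11 of 12 collagen libraries were below the lowest suspension library. Its log2 fold change was -1.19 ± 0.23 (SE, adjusted p = 0.0040 in edgeR). Without replicate 1 the call was lost (log2 -0.88, adjusted p = 0.106), in a fit that called 1550 of 13730 genes, against 2790 of 13844 with all replicates. With offsets the value became -0.67 (adjusted p = 0.0225), and Dock6 has the highest GC content of the DOCK genes, 58.4%.

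The genes around the DOCK proteins were counted in the same comparison, from lists chosen with earlier results of these data known. Of 14 adaptors and partners, 3 were called higher and 1 lower in collagen by edgeR, and with the block 6 were higher and 1 lower. Of all genes tested, 7.78% were called higher and 12.4% lower in the first fit, and 15.6% and 19.3% in the second. Elmo2, a scaffold that binds DOCK-A proteins, was lower, at 58.2 ± 8.96 CPM (SD, n = 6) in suspension and 29.6 ± 9.52 CPM (SD, n = 12) in collagen (log2 -0.997 ± 0.202 SE, adjusted p = 0.0047). The adaptors Crk and Crkl, which couple Dock1 to adhesion sites, were higher (log2 0.78 ± 0.23 SE, adjusted p = 0.035, and log2 0.63 ± 0.16 SE, adjusted p = 0.017). Mob1b, a Hippo pathway adaptor, was higher too (log2 0.75 ± 0.25 SE, adjusted p = 0.060). The median log2 fold change of this list was 0.21, against 0.003 over all genes tested.

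The GTPases that the members act on were taken outside the naming rule, after their values were seen. Cdc42 had a log2 fold change of 0.53 ± 0.26 (SE, adjusted p = 0.19) that was called with the block (0.53, adjusted p = 0.016), while Rac1 (log2 0.19 ± 0.16 SE, adjusted p = 0.46) and Rac2 (log2 0.08 ± 0.21 SE, adjusted p = 0.85), the hematopoietic Rac, were called in neither fit.

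Of 22 tested exchange factors for Rac and Cdc42 outside the DOCK family, 7 were lower and 2 higher in collagen, and with the block 8 were lower and 4 higher, against 12.4% lower and 7.78% higher of all genes without the block and 19.3% and 15.6% with it. The list median was -0.15. The lower ones included Tiam2 (log2 -1.45 ± 0.32 SE, adjusted p = 0.0075), Vav2 (log2 -0.91 ± 0.15 SE, adjusted p = 0.0014), Fgd2 (log2 -0.90 ± 0.29 SE, adjusted p = 0.049), and Trio (log2 -0.84 ± 0.28 SE, adjusted p = 0.059). Tiam2 and Vav2 activate Rac, Fgd2 activates Cdc42, and Trio acts on Rac. The 2 higher ones, Sos1 (log2 0.75, adjusted p = 0.0661) and Swap70 (log2 0.55, adjusted p = 0.090), were chosen for naming after their values were seen. Of 15 tested GTPase-activating proteins and GDIs, which switch Rac and Cdc42 off or hold them in the cytosol, 2 were lower and 0 higher without the block, against the same 12.4% and 7.78% of all genes. They were Arhgap25 (log2 -0.86 ± 0.26 SE, adjusted p = 0.034) and Arhgap22 (log2 -0.80 ± 0.30 SE, adjusted p = 0.088).

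Of 19 tested effectors of Rac and Cdc42, 1 was lower and 1 higher without the block, against 12.4% and 7.78% of all genes. Wasf2, the WAVE2 protein that links Rac to branched actin, was lower (log2 -0.66 ± 0.21 SE, adjusted p = 0.053) and Pak4, a Cdc42 effector kinase, was higher (log2 0.54 ± 0.16 SE, adjusted p = 0.034). The list medians were -0.19 for the GTPase-activating proteins and GDIs and -0.09 for the effectors.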

How the data were processed

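RNA was measured in 18 libraries, 3 biological replicates in each of 6 groups. The values deposited by the authors are raw counts, 1 row for each Ensembl gene ID. The study's methods describe single-end sequencing of stranded mRNA libraries, alignment with STAR, TPM from RSEM, and DESeq2 at an FDR of 0.1. The submitters' processing notes name STAR 2.7.0f and GRCm38. How reads were counted, with which strand setting, and what was done with multi-mapping reads is not given in the sources used here.

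From the counts, genes were filtered with filterByExpr, scaled by TMM, and fitted with 6 group means in edgeR 4.0.16 (quasi-likelihood test, R 4.3.3), and called at an FDR of 0.1 over 13844 genes. The SE of a fold change was its size divided by the root of F. CPM was computed with TMM-scaled library sizes and log2 CPM with a prior count of 2. Alternatives were the replicate block, DESeq2 1.42.0, its size factors, no filter, an FDR of 0.05, loess offsets for GC content and length (span 0.5), and omitted libraries. The code was also run on simulated counts with preset spread and fold changes. That run does not measure how reliable the calls above are. At these depths 3 counts correspond to 0.107 to 0.23 CPM, which covers counting error only.

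The replicate numbers were taken as a pairing, since the library names give each number a single date and lane. For libraries of the same number, deviations from the group means had a mean r of 0.434 over 45 pairs (range -0.149 to 0.846). Between different numbers the mean r was -0.214. This second value largely follows from the first, because deviations from a group mean cancel within the group, and is no separate evidence. The block lowered the biological coefficient of variation from 49.0% to 33.1%.

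The members and the lists were chosen with earlier results of these data known. Named genes were the members, the other DOCK genes, up to 4 called genes of each list with the largest fold changes, the 2 genes most like each of the 3 members with the largest fold changes, and Xist with the Y-linked genes. Some results under this rule are not reported here. Positions came from GENCODE vM21 and promoters from RefSeq (GRCm38.p6). Of 29875 genes, 29850 had a symbol, a length, and a GC content.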

Additional observations from a re-analysis of the deposited data

Results flagged for a closer look

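In the 6 suspension libraries, replicate 2 of the group titled without CCL19 stood apart for the 2 DOCK-D members that follow each other. Its Dock10 value was 271 CPM with the nearest library at 121 CPM, a gap of 0.663 of the whole range, above Dixon's 95% critical value for 6 samples. Its Dock11 value was 74.5 CPM with the nearest at 35.9 CPM, a gap of 0.637 of the range. The other 6 members were under the critical value, Dock1 being closest at 0.607 with the same library highest (18.8 CPM, nearest 12.7 CPM). About 1 in 20 groups is flagged by chance, and the 2 flags concern the same library. The ratio of Dock10 to Dock8 in this library, 0.777, was the highest of the suspension libraries and below the lowest collagen library (0.878).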

How the results depend on the processing

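In collagen against suspension, members called went from 1 to 4 with the replicate block in edgeR, to 5 with the block in DESeq2, to 2 without the filter, and to 4 with the block and the offsets (3 lower and Dock10 higher). All genes called went from 2790 of 13844 to 4823, 5381, 2715 of 29875, and 5068 of 13834 in the same order. Leaving out a replicate gave 0 to 1 members. Without replicates 1, 2, and 3, edgeR called 1550 of 13730, 631 of 14106, and 1431 of 13662 genes. At 1.7 mg/ml the count of 0 became 1 with the block, 1 in DESeq2, and 2 with the block in DESeq2. All genes called there went from 5 of 13844 to 403, 141, and 1095. At 2.6 mg/ml the count of 1 became 2 with the block, 3 with the block in DESeq2, 2 with the block and offsets, and 0 at an FDR of 0.05. All genes called there went from 1090 of 13844 to 2990, 3665, 3378 of 13834, and 444. The member count was 0 without each of the 3 replicates, and was 1 without the 4.4 mg/ml library of replicate 2. In these fits, in order, 1318 of 13730, 0 of 14106, 4 of 13662, and 1154 of 14368 genes were called. Without the filter 1 member was called at 2.6 mg/ml too, Dock10 in place of Dock1, and 1228 of 29875 genes. At 3.5 mg/ml the count of 0 became 3 with the block, 1 in DESeq2, and 3 with the block in DESeq2. With the block and offsets it became 2 (1 lower and 1 higher). All genes called there went from 679 of 13844 to 2551, 1343, 3200, and 2379 of 13834. At 4.4 mg/ml the count of 1 became 3 with the block, 2 in DESeq2, and 3 with the block in DESeq2. It became 2 without the filter, 0 at an FDR of 0.05, and 3 with the block and offsets (2 lower and 1 higher). In the same order, all genes called went from 2054 of 13844 to 4420, 2808, 5022, 2384 of 29875, 1229, and 4747 of 13834. The count ran from 0 to 1 without a replicate (the 1 being Dock8 without replicate 1) or without the 4.4 mg/ml library of replicate 2. All genes called were then 1615 of 13730, 106 of 14106, and 946 of 13662 without replicates 1, 2, and 3, and 1457 of 14368 without that library. For the density trend the count of 0 became 1 (Dock5) with the block in DESeq2 and with the block and offsets. All genes called for the trend went from 1 of 13844 to 811 and 658 of 13834. Between 4.4 and 1.7 mg/ml and between the suspension groups the member count stayed at 0 in all 12 alternatives. All genes called ran there from 0 to 920 and from 0 to 194.

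Of 216 member values under alternatives for the results given above, 168 kept direction and call, 35 were called only in the alternative, 11 lost their call, and 2 changed sign, both without replicate 3. Leaving out a replicate gave -0.385 to 0.0356 for Dock9 and -0.0671 to 0.711 for Dock11. The causes were not tested. Of 552 others, 66 changed sign, none of them called. Over all genes, collagen against suspension called 2790 without the block (1077 higher, 1713 lower), 4823 with it (2158 higher, 2665 lower), and 5068 with the block and offsets (2567 higher, 2501 lower). Counts of 29 to 413 per library limit the precision of Dock1, Dock4, and Dock9.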
